A study of Homo sapiens with 8 samples.

Results

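The genes described here are 10 genes of the actin contractile apparatus: the transcription factor gene SRF, the calponin family genes TAGLN, TAGLN2, CNN1 and CNN2, the smooth muscle actin gene ACTA2, the tropomyosin genes TPM1 and TPM2, the caldesmon gene CALD1 and the myosin light chain gene MYL9. They were chosen by name, as a family around TAGLN, a gene already seen among the largest falls in these data, and they are set against 7739 named genes with a detected probe. Every value of the members in the comparison of the 2 groups is therefore a description, and no p-value is given for a member. Of the 10 members, 9 had at least 1 probe paired with a gene name, 16 probes in all, and 7 had a probe that passed the detection filter, 12 probes in all. MYL9 had no paired probe, and the only probes of CNN1 and TPM2 did not pass the filter. The filter kept probes with detection p under 0.01 on at least 4 of the 8 arrays.

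The study measured total RNA on Illumina Expression BeadChips in MDA-LM2-shTARBP2 cells, a line of lung-metastatic human breast cancer cells derived from MDA-MB-231. All 8 samples, the controls included, carry a hairpin against TARBP2, whose protein binds double-stranded RNA and works with Dicer. Into this background 4 samples received a lentiviral control hairpin (shControl) and 4 a lentiviral hairpin against the zinc finger gene ZNF395 (shZNF395), followed by selection, and RNA was taken at 48 h, a time that the labels count from transfection. The controls carry a control hairpin by their sample labels, although the series design describes them as mock-transfected. The sources used here do not say whether the 4 samples of a group are separate cultures or carry different hairpins, so the spread between them may be technical, and 4 arrays per group limit the precision.

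The members belong to 1 system. Actin filaments slide past non-muscle or smooth muscle myosin II, whose activity is set by phosphorylation of its regulatory light chains, and tropomyosin, caldesmon, calponin and transgelin bind along the filaments and alter how myosin and other proteins reach them. SRF binds a short DNA element called the CArG box, together with cofactors of the myocardin family or of the ETS family. In the myocardin family (MRTFA, MRTFB, MYOCD), MRTFA and MRTFB sense unpolymerised actin. Those of the ETS family (ELK1, ELK3, ELK4) are phosphorylated by growth factor signalling. TAGLN, ACTA2 and CNN1 are classical markers of smooth muscle and of myofibroblasts, and they are also studied in carcinoma cells with mesenchymal traits.

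The arrays were similar in brightness. Their median raw signals lay between 53.2 and 57.1, and each array detected 16476 to 17406 of its 47323 probes. ZNF395, the target of the hairpin, stood at 9.80 to 10.05 in shControl and at 8.99 to 9.22 in shZNF395 on the log2 intensity scale. Its level fell to 57.3% of the control (log2 change -0.80, SE 0.077, limma adjusted p = 1.01e-05). Throughout, a probe or gene was called when its limma adjusted p was under 0.05, and rose or fell is written of called changes. Of all kept probes 55.4% were called, 25.3% as higher and 30% as lower in shZNF395. Of the named genes, each represented by the brightest of its kept probes, 58.1% were called, 30.1% as higher and 28% as lower.

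Of the 7 members with a kept probe, 6 were lower in shZNF395, 0 were higher and 1, TPM1, was not called. The 28% of named genes that were lower is the background of that count, and nothing is read from it, since the family was drawn up with this comparison in view. The count also depends on the pairing. TAGLN and TAGLN2 got their kept probes through a search limited to transcripts whose change deposited by the authors exceeded 0.2 in either direction. MYL9, at -0.01, was outside that search, and the named genes hold no probe paired that way. The median log2 change of the 7 members was -0.40, beside -0.00 over the named genes. In 5 of the 7 the values of the groups did not overlap, beside 52.8% of the named genes. By probe, 9 of 12 were lower, beside 30% of all kept probes, and 7 of 12 had groups that did not overlap, beside 49%. Less RNA per cell and fewer cells that express a gene cannot be told apart in these bulk samples.

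**Figure D1:**
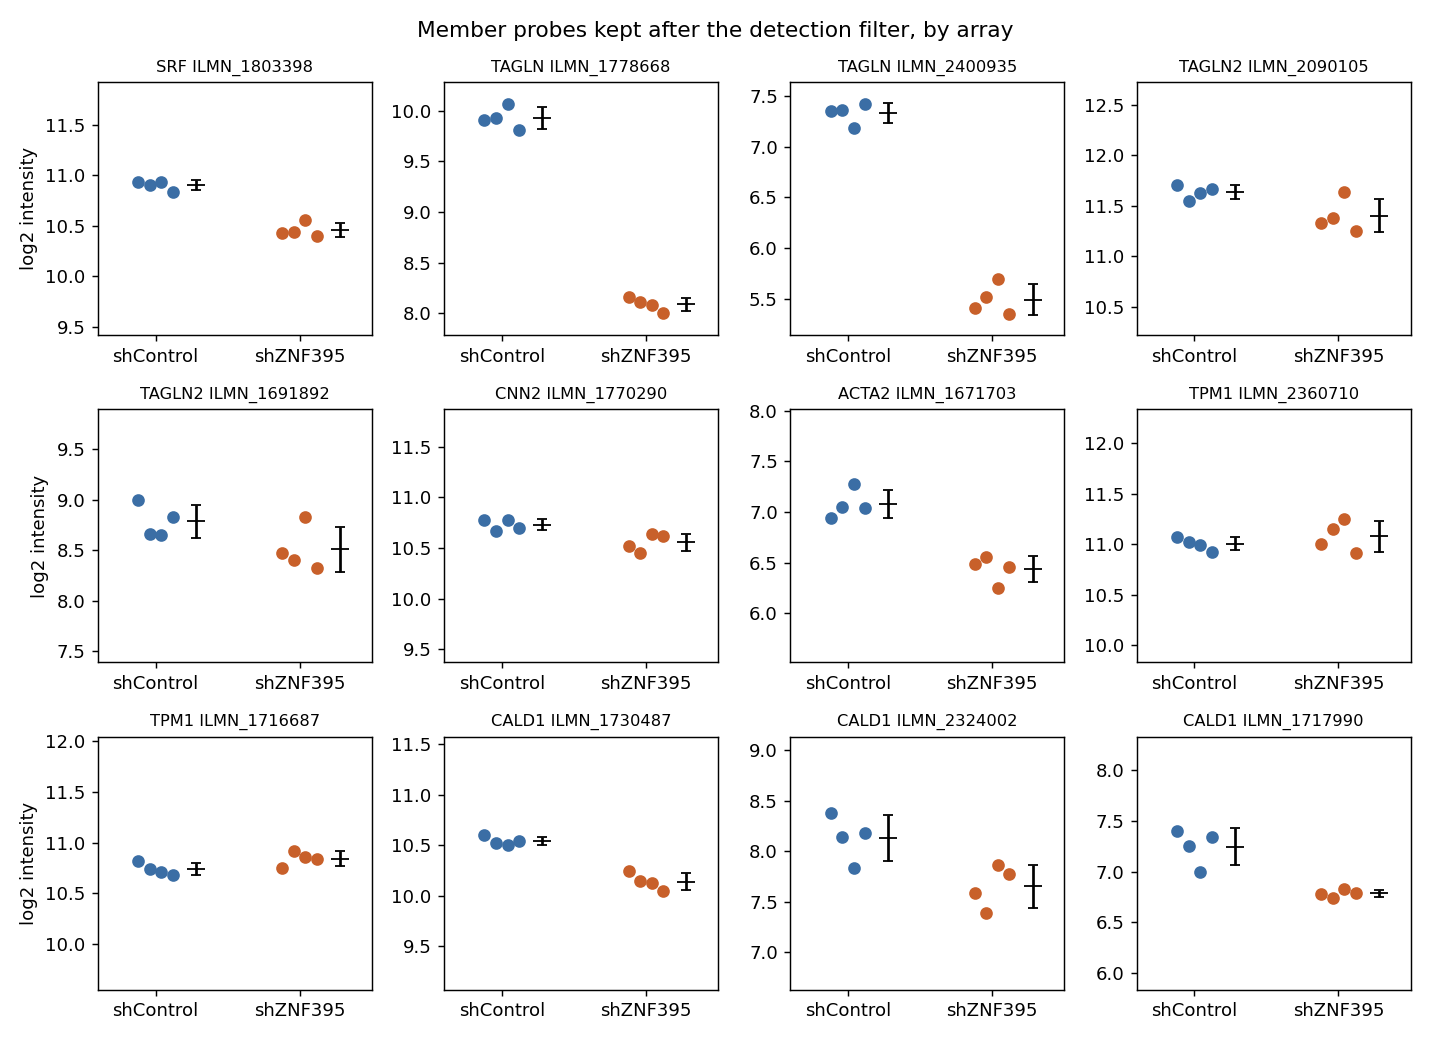
Log2 intensity (y axis; every panel spans a range of the same size) of the 12 kept member probes on each of the 4 shControl (blue) and 4 shZNF395 (orange) arrays; the black marks are the group mean and SD. The groups lie far apart for both TAGLN probes, are separate but closer for SRF and ACTA2, and overlap for TAGLN2 and TPM1.

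SRF, the transcription factor at the head of the system, was lower in shZNF395. Its single probe read 10.93, 10.90, 10.94 and 10.84 in shControl 1 to 4 and 10.43, 10.44, 10.56 and 10.40 in shZNF395 1 to 4. All 4 shZNF395 arrays lay below all 4 shControl arrays. The mean fell from 10.90 ± 0.046 to 10.46 ± 0.068 (SD, n = 4), a log2 change of -0.45 (SE 0.061), or 73.4% of the control level. The raw signals behind these values were 1729 to 2203 in shControl and 1324 to 1468 in shZNF395.

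SRF is also a gene with CArG boxes at its own start. The box has 10 letters, CC, then 6 letters that are each A or T, then GG. This pattern is the same on both strands, although the letters of a single box can differ between them. Windows from 250 bases before to 50 bases after annotated starts (RefSeq, GRCh38.p14) were searched for it. Of 35116 windows over all genes, 1.29% held a box and 0.0313% held 2 or more. Of the 8 members with a window, SRF and CNN2 held one, and TAGLN and MYL9 have no window in the table used. The SRF window (chr6:43171019-43171318, plus strand) and the CNN2 window (chr19:1026358-1026657, plus strand) are printed because they are the members' windows with the motif. The boxes, in capitals, begin 30 and 10 bases before the start of SRF and 89 bases before that of CNN2.

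SRF: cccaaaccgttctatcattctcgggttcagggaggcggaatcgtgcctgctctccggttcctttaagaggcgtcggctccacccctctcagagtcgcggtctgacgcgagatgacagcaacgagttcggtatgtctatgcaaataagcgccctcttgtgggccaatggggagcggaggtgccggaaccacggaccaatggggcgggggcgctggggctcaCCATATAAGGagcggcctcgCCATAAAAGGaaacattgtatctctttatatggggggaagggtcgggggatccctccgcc
CNN2: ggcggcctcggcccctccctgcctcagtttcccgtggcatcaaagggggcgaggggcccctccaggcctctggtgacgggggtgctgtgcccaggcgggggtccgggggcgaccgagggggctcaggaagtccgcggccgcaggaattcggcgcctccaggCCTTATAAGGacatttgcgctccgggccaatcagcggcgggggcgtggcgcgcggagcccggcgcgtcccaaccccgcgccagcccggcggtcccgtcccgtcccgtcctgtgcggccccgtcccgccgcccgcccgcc

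Over all genes, the box can be set beside the direction of change. Of 99 named genes with a kept probe and a box in a window, 32.3% were higher and 24.2% lower. Of 6160 with a window and no box, 29.8% were higher and 28% lower. The medians of the log2 change were 0.04 and -0.00. Both shares and medians are descriptions, and no test of their difference was made. A match is a run of letters, not a bound site.

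TAGLN, which encodes transgelin (SM22), an actin-binding protein that bundles filaments, had the largest change of the members. Its brighter probe, ILMN_1778668, read 9.91, 9.93, 10.06 and 9.81 in shControl 1 to 4 and 8.16, 8.11, 8.08 and 8.0 in shZNF395 1 to 4. Its dimmer probe, ILMN_2400935, read 7.35, 7.37, 7.19 and 7.43 in shControl and 5.41, 5.51, 5.69 and 5.34 in shZNF395. On both probes the gap between the groups was many times the spread within a group.

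The brighter probe fell from 9.93 ± 0.11 to 8.09 ± 0.066 (SD, n = 4), a log2 change of -1.84 (SE 0.070). The dimmer probe fell from 7.33 ± 0.10 to 5.49 ± 0.15, also a log2 change of -1.84 (SE 0.087). After background correction TAGLN thus stood at 27.9% of its control level on each probe. In raw signal the brighter probe read 857.5 to 1189 in shControl and 277.9 to 322.3 in shZNF395. The dimmer probe read 183.2 to 203.8 in shControl and 69.8 to 83.7 in shZNF395. The latter values are not far above the array medians of 53.2 to 57.1, so the percentage of the dimmer probe depends on the background correction. Only 3 of the named genes fell further, a ranking without genes paired, as TAGLN was, only through the mean of 2 probes. Over all kept probes, 5 fell further than the brighter TAGLN probe. Another TAGLN probe, ILMN_1706783, paired with the other RefSeq transcript of the gene, was detected on 0 of the 8 arrays.

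**Figure D2:**
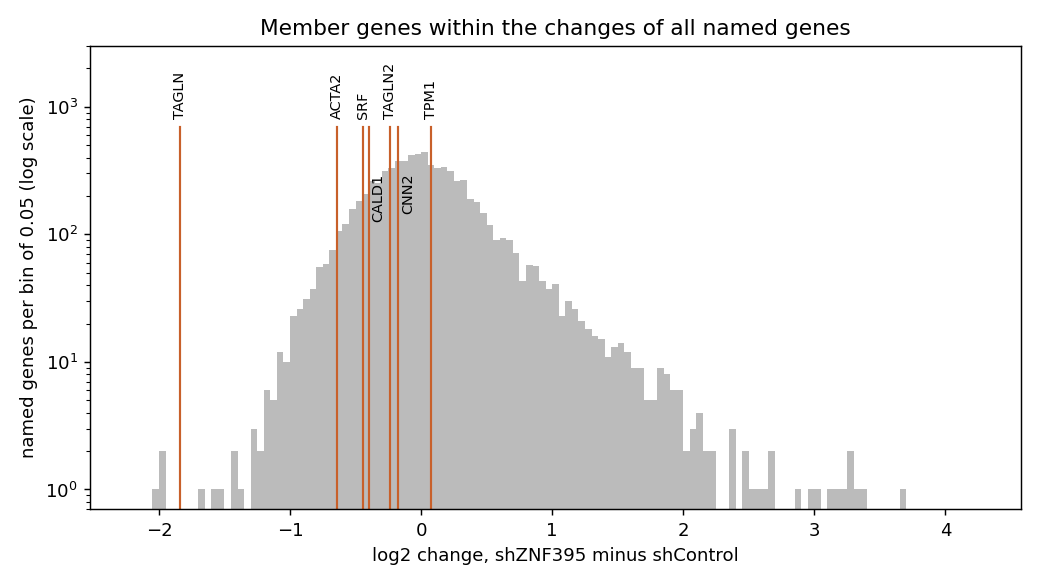
Number of named genes (y axis, log scale) by log2 change, shZNF395 minus shControl (x axis, bins of 0.05), with an orange line at each of the 7 members with a kept probe. TAGLN, at -1.84, lies at the far left edge of the distribution, and the other 6 lie within its body, from -0.64 for ACTA2 to 0.08 for TPM1.

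TAGLN2, the transgelin found in most non-muscle cells, changed far less. Its brighter probe, ILMN_2090105, read 11.70, 11.55, 11.63 and 11.67 in shControl 1 to 4 and 11.33, 11.38, 11.63 and 11.26 in shZNF395 1 to 4. The array shZNF395 3 reached the control range, and the other 3 lay below it. The log2 change was -0.24 (SE 0.085), or 84.9% of the control level. The dimmer probe, ILMN_1691892, had a log2 change of -0.28 (SE 0.116) with overlapping groups, and was not called. The call on the brighter probe was lost without any 1 of shControl 1, 3 or 4 or shZNF395 1, 2 or 4.

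The calponins are related to transgelin and inhibit the myosin ATPase on actin. CNN1, the smooth muscle form, was detected on 0 of the 8 arrays. CNN2, which is expressed in many non-muscle cells, read 10.78, 10.67, 10.78 and 10.70 in shControl 1 to 4 and 10.52, 10.45, 10.64 and 10.61 in shZNF395 1 to 4 on its kept probe. The highest shZNF395 array lay just below the lowest shControl array. The log2 change was -0.17 (SE 0.065), or 88.6% of the control level. Its call was lost without any 1 of shControl 1, 3 or 4 or shZNF395 1 or 2. A second CNN2 probe was detected on 1 of 8 arrays and was not tested.

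ACTA2, the smooth muscle alpha actin, was the member with the next largest fall. It read 6.94, 7.05, 7.28 and 7.04 in shControl 1 to 4 and 6.49, 6.56, 6.25 and 6.45 in shZNF395 1 to 4. The groups did not overlap. The mean fell from 7.08 ± 0.14 to 6.44 ± 0.13 (SD, n = 4), a log2 change of -0.64 (SE 0.090), or 64.1% of the control level. The signal was modest, with raw values of 153.7 to 192.4 in shControl and 108.8 to 128.4 in shZNF395. Actin genes are alike in sequence, and whether the ACTA2 probe also reads other actins was not tested.

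The ACTA2 window that begins at its downstream start (chr10:88952724-88953023, minus strand, RefSeq, GRCh38.p14) held no CArG box, but it held 2 runs that differ from the box at 1 of its 10 letters. It is shown, with those runs in capitals, as the members' window with the most such runs. The other ACTA2 window held 0, and CALD1 windows with such a run are not shown. Whether SRF acts at these runs was not tested. Such a run or a full box is common, in 18.9% of all windows and in 5 of the 16 windows of the members. The runs begin 121 and 71 bases before the start.

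ACTA2: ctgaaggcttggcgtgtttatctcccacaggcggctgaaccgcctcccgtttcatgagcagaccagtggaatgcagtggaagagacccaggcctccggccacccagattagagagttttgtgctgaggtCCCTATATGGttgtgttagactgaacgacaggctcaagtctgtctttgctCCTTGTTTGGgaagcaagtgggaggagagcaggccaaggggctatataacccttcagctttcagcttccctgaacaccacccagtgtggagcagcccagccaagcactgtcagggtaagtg

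CALD1, the caldesmon gene, was lower on all 3 of its probes. Caldesmon binds actin, myosin, tropomyosin and calmodulin and inhibits the myosin ATPase. The brightest probe, ILMN_1730487, read 10.60, 10.52, 10.50 and 10.54 in shControl 1 to 4 and 10.24, 10.15, 10.12 and 10.05 in shZNF395 1 to 4, with no overlap. Its log2 change was -0.40 (SE 0.063), or 75.8% of the control level.

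The other CALD1 probes, paired with other transcripts of the gene, gave log2 changes of -0.48 (ILMN_2324002, SE 0.127) and -0.46 (ILMN_1717990, SE 0.087). The 3 changes lie within 1 SE of the least precise of them. On ILMN_2324002 the groups overlapped, because shControl 3, at 7.83, lay below shZNF395 3, at 7.87. On ILMN_1717990 they did not.

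The tropomyosins, which lie along the actin filament and regulate myosin binding, had no called change. TPM1 read 11.08, 11.02, 10.99 and 10.92 in shControl 1 to 4 and 11.003, 11.15, 11.25 and 10.91 in shZNF395 1 to 4 on its brighter probe, with overlapping groups. Its log2 change was 0.08 (SE 0.082), and 0.11 (SE 0.063) on the other kept probe, and neither was called. TPM2 was detected on 0 of the 8 arrays by its paired probe. In the authors' deposited table, which gives 1 change per transcript, the TPM1 and TPM2 entries without a paired probe stand at 0.05 and -0.04, and MYL9, the regulatory light chain of smooth muscle and non-muscle myosin II, stands at -0.01.

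**Figure D3:**
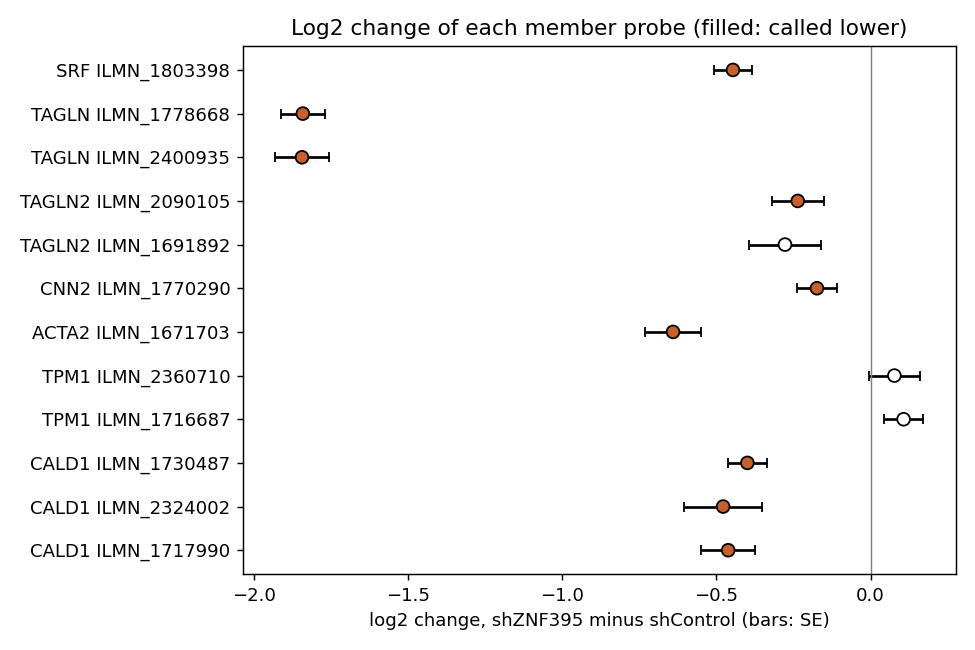
Log2 change, shZNF395 minus shControl (x axis), of the 12 kept member probes, with bars of 1 SE; filled points were called lower and open points were not called. Both TAGLN probes stand at -1.84, the 3 CALD1 probes between -0.48 and -0.40, and the 2 TPM1 probes just above 0.

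The genes whose profile over the 8 arrays lay nearest to that of TAGLN were found by the root mean square difference of the profiles, each centred on its own mean, on the log2 scale. They were TXNIP (0.12), CST1 (0.12), FAM83D (0.12), CABLES2 (0.17) and CD74 (0.19). Their log2 changes ran from -1.99 for CST1 to -1.50 for CD74. The profiles were not scaled, so a small difference from TAGLN requires a fall of similar size, and these changes follow from the search. The profiles nearest to TPM1 included MTARC2, PSMB4, SHKBP1 and NSMCE1, with differences of 0.05 each.

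Other genes of the actin system were read from 8 lists, with 139 genes besides the members, of which 85 had a kept probe of their own. Of these, 26 (30.6%) were higher and 12 (14.1%) lower in shZNF395, with a median log2 change of 0.04. The background for named genes is 30.1% higher and 28% lower. The lists range from a log2 change of -0.98 to 1.53.

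The gene of another smooth muscle actin, ACTG2, fell with TAGLN and ACTA2. It read 8.27 to 8.37 in shControl and 7.22 to 7.44 in shZNF395, with no overlap, a log2 change of -0.98 (SE 0.070, limma adjusted p = 1.14e-06) and 50.6% of the control level. It was the measured gene of the 5 listed actin isoforms. Its window (chr2:73892758-73893057, plus strand, RefSeq, GRCh38.p14) is printed because it holds 2 CArG boxes, in capitals, which begin 110 and 73 bases before the start. Of the 5 named genes with 2 boxes in a window and a kept probe, ACTG2 and SRF were lower, ING4 was higher (0.95), and EGR1 (0.27) and ZNF548 (-0.06) were not called.

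ACTG2: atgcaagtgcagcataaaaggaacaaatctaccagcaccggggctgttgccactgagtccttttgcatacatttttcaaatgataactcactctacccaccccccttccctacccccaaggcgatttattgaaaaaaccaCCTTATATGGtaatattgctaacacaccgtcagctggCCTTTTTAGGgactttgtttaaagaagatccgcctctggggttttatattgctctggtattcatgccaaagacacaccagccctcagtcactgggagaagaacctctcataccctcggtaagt

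Markers of smooth muscle cells were mostly absent. Of 8 smooth muscle markers with a probe, 6 (MYH11, DES, LMOD1, MYOCD, CASQ2 and SYNPO2) were detected on 0 of the 8 arrays, and ACTG2 and SYNM on all 8. The summed intensity of the list in the authors' normalized values was 1107 to 1204 in shControl and 1000.5 to 1103 in shZNF395. Of 6 fibroblast markers with a probe, 4 were detected on no array and COL1A1 on all 8, with sums of 587.5 to 664.8 in shControl and 703.2 to 719.0 in shZNF395. Of 7 leukocyte markers with a probe, 5 were detected on no array, and CD14 (log2 change 1.45) and LAPTM5 (0.16) on all 8, with sums of 1074 to 1195 in shControl and 1351 to 1622 in shZNF395. The part of these cell types in the members' values was not tested. The markers of the line CD44, EGFR, KRT8, LGALS1 and S100A6 were detected on all 8 arrays by at least 1 probe. Of these, KRT8 (log2 change 0.90), S100A6 (0.33) and EGFR (0.24) were called higher by their brightest probes. LGALS1 (0.15) and CD44 (0.06) were not called by theirs. Another CD44 probe, ILMN_2348788, detected on all 8 arrays, was called lower (-0.28). The sums of the list were 27298 to 28958 in shControl and 31339 to 33229 in shZNF395. KRT18 was detected on none of the 8 arrays by its paired probes. All 7 genes listed as low in MDA-MB-231, among them ESR1 and PGR, were undetected.

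SRF acts with cofactors, of which 8 were measured. Of these, 2 were lower (25%) and 0 higher, beside 28% lower and 30.1% higher among the named genes. Their median log2 change was -0.13. The ETS family cofactor ELK1 had a log2 change of -0.43 (SE 0.060, limma adjusted p = 0.000144), from 10.46 to 10.62 in shControl to 10.08 to 10.13 in shZNF395. ELK4, of the same family, fell by 0.44 (SE 0.069, limma adjusted p = 0.000311). The actin-sensing cofactor genes MRTFA and MRTFB had log2 changes of -0.14 (SE 0.068) and -0.11 (SE 0.073), and CSRP1 of 0.17 (SE 0.083), and none of these 3 was called. Without shZNF395 1, CSRP1 was called as higher, at 0.23.

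Of 9 measured immediate-early genes that SRF is known to activate, 2 were higher (22.2%), 2 lower (22.2%) and 5 not called, beside 30.1% higher and 28% lower among the named genes. FOS, a subunit of the AP-1 transcription factor, fell by 0.65 (SE 0.079, limma adjusted p = 5.17e-05) and its relative FOSB by 0.82 (SE 0.144, limma adjusted p = 0.000657). KLF6 rose by 0.48 (SE 0.060). EGR2 was below detection on all 4 shControl arrays and detected on all 4 shZNF395 arrays. It passed the filter only through the shZNF395 arrays, so its call as higher, counted above, is no support and no p-value is given. Its log2 change was 0.81 (SE 0.101). It was 0.47 with no background correction, 0.45 with an offset of 50 and 0.51 on the authors' series matrix values, so no fold is given. EGR1, with a log2 change of 0.27 (SE 0.109), and CCN1, with -0.01 (SE 0.062), were not called.

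The motor and its regulators changed in both directions. Of 4 measured myosin II chains, MYH10, the heavy chain of non-muscle myosin IIB, fell by 0.58 (SE 0.071), while the regulatory light chains MYL12A and MYL12B, close relatives of MYL9, rose by 0.53 (SE 0.067) and 0.24 (SE 0.059). MYL12A and MYL12B are nearly identical in sequence, and whether their probes tell them apart was not tested. The MYL12B call was lost under median scaling. Of 15 genes that regulate light chain phosphorylation 6 were higher (40%) and 2 lower (13.3%), beside 30.1% and 28% of the named genes. RND3, an antagonist of RhoA signalling, rose by 0.67 (SE 0.071, limma adjusted p = 1.98e-05). RHOA itself fell by 0.28 (SE 0.062), and PPP1R12A, the targeting subunit of myosin phosphatase, by 0.60 (SE 0.088).

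Crosslinkers tie filaments together and to adhesions, and turnover genes build and sever them. Of 22 measured crosslinker and focal adhesion genes 7 were higher (31.8%) and 2 lower (9.1%), at a median log2 change of 0.05. The shares among the named genes are 30.1% higher and 28% lower. PDLIM7, a scaffold with PDZ and LIM domains, rose by 0.53 (SE 0.098, limma adjusted p = 0.000964), and LIMA1, which crosslinks actin filaments, by 0.49 (SE 0.090). The 2 lower genes were VCL (vinculin, -0.28, SE 0.105), whose call was lost without any 1 of shControl 1, 2, 3 or 4 or shZNF395 1, 2 or 4, and ACTN1 (alpha-actinin, -0.20, SE 0.063), named after its value was seen. The 23 turnover genes had a median of 0.16, with 9 higher (39.1%) and 1 lower (4.3%). GSN, the filament-severing protein gelsolin, rose 2.90-fold (log2 change 1.53, SE 0.091, limma adjusted p = 3.01e-07), with 6.84 to 7.07 in shControl and 8.37 to 8.75 in shZNF395. The fold depends on the background correction: the log2 change of GSN was 1.33 with none and 1.32 with an offset of 50. ARPC1B, a subunit of the Arp2/3 complex, rose by 0.41 (SE 0.058). The formin gene DIAPH3, which nucleates filaments, was the gene that fell, by 0.74 (SE 0.070, limma adjusted p = 9.12e-06).

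**Figure D4:**
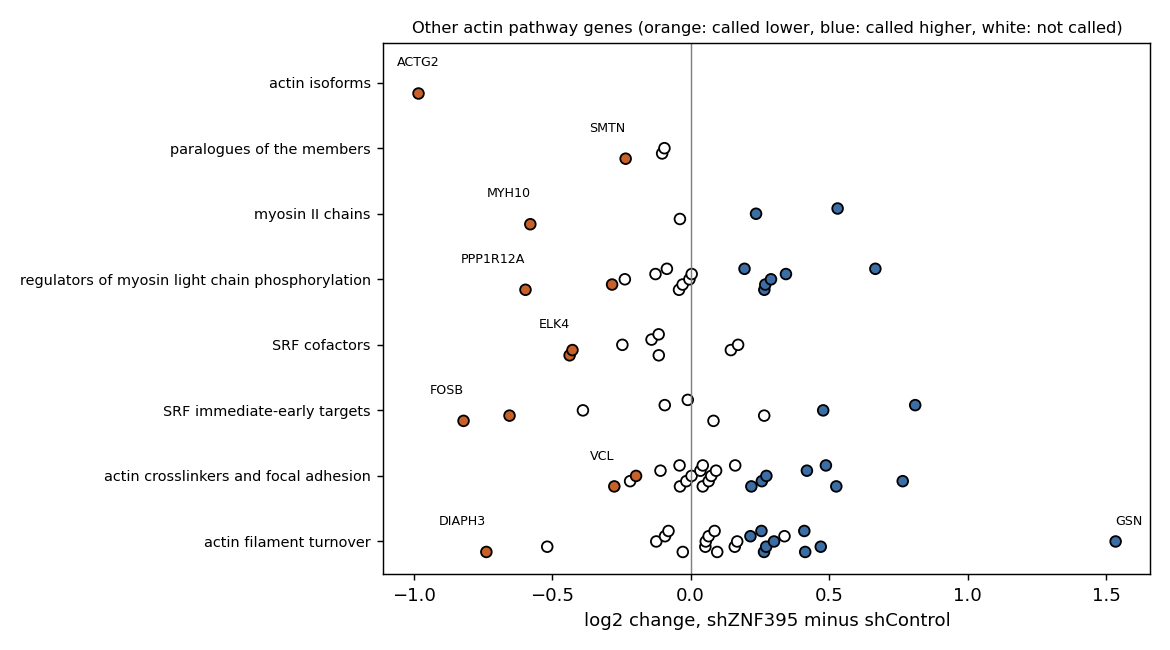
Log2 change, shZNF395 minus shControl (x axis), of the 85 measured genes of the 8 lists (rows); orange points were called lower, blue points higher and white points were not called, and the lowest gene of each list and the highest of all are named. ACTG2 lies furthest left at -0.98, and GSN furthest right at 1.53.

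The list of paralogues of the members also holds tropomodulin family genes such as TMOD2, which are not their paralogues. Of its 11 genes, 3 were measured. SMTN (smoothelin, a protein of contractile smooth muscle filaments) fell by 0.23 (SE 0.065, limma adjusted p = 0.0099). TMOD2 (-0.09, SE 0.111) and the calponin gene CNN3 (-0.10, SE 0.073) were not called.

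**Figure D5:**
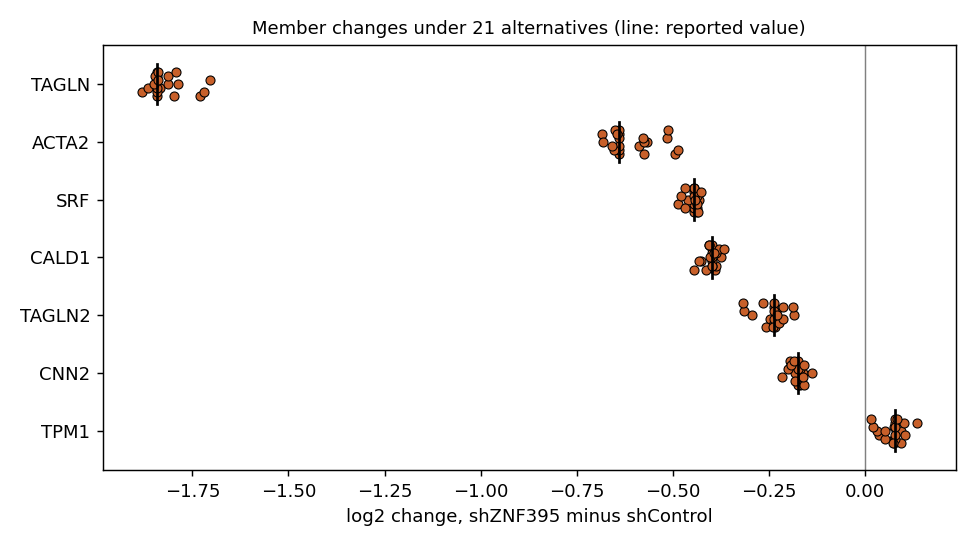
Log2 change, shZNF395 minus shControl (x axis), of the 7 members with a kept probe under each of 21 alternatives (points) and as reported (vertical line). TAGLN ran from -1.88 to -1.71, ACTA2 from -0.69 to -0.49 and TPM1 from 0.02 to 0.13.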

How the data were processed

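The members and gene lists were chosen with earlier results of these data known. Per the file headers, the deposited non-normalized table gives every probe (47323) an intensity and a detection p-value on each of 8 arrays. The deposited series matrix holds the authors' normalized intensity values, and the submitters' processing notes name lumi. The authors' deposited table of log2 changes names 39747 transcripts, not probes, with no value per array.

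Probes were therefore paired with transcripts from the values: the series matrix values, passed through an inverse hyperbolic sine fitted to the deposited changes, gave the same change within 1e-09 for 1 probe in 83.3% of entries, against 0.0415% after a shift. A further 1036 entries with changes above 0.2, those of TAGLN and TAGLN2 among them, matched the mean of 2 probes (86.4% of those searched, 3.5% after a shift). They entered no count besides that of the members. Symbols came from RefSeq (GRCh38.p14).

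The raw intensities went through limma 3.58.1 (R 4.3.3; normexp by detection p-values, offset 16, quantile normalization, log2). One fit (lmFit, eBayes, two-sided, Benjamini-Hochberg over 17184 kept probes, adjusted p under 0.05) gave all calls, and was tested on simulated data. The brightest kept probe stood for a gene. Named are ZNF395, every member, up to 3 genes with the smallest p and both extremes of each list, and the nearest profiles; others are said to be chosen afterwards or named for their role. EGR1, CCN1, MRTFA, MRTFB, CNN3, ING4 and ZNF548 were named for role or motif. Alternatives covered background, normalization, filter, probe, threshold, variance, weights, replicate block and arrays left out. One gene that this rule names is not reported here.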

Additional observations from a re-analysis of the deposited data

Results flagged for a closer look

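ELK4 on shControl 2 had a log2 intensity of 6.92, apart from the 6.73 to 6.76 of its fellow controls. DIAPH3 on the same array had 8.52, below the 8.68 to 8.71 of the rest. These are 2 of the 82 sets of 4 arrays examined for such a gap, and chance gives about 1 in 20. Neither gene is a member, and both passed the test without that array.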

How the results depend on the processing

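Under the 21 alternatives TAGLN ran from -1.88 to -1.71 on the log2 scale, ACTA2 from -0.69 to -0.49, SRF from -0.49 to -0.43 and CALD1 from -0.45 to -0.37. TAGLN2 ran from -0.32 to -0.19 and CNN2 from -0.22 to -0.14, and both lost their call under cyclic loess, with no detection filter and at an adjusted p under 0.01. These ranges describe genes chosen from the same comparison. The log2 change of EGR2, 0.81 as reported, was 0.47, 0.45 and 0.51 with no background correction, with an offset of 50 and on series matrix values. The count of lower members was 4 to 6, and that of higher members 0. With each array left out in turn, TAGLN ran from -1.88 to -1.80, and the counts ran from 3992 to 4443 higher and 4578 to 5235 lower probes, and from 22 to 28 higher and 10 to 18 lower genes of the actin lists. Without both arrays numbered 3, TAGLN had a log2 change of -1.79. The replicate numbers did not pair the samples: deviations from the group means correlated between same-numbered arrays at -0.11, 0.01, -0.42 and -0.09. Between shControl and shZNF395 arrays with different numbers the correlations ran from -0.29 to 0.43. Whether a pairing under other numbers or a batch lies behind them was not tested. With the replicate number as a block, TAGLN stayed at -1.84 and the calls of TAGLN2 and CNN2 were lost. Gene names rest on the pairing of values, MYL9 has no paired probe, and CNN1 and TPM2 were not above background.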

Other observations

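On the scale of the authors' deposited table TAGLN stands at -1.20. That value equals the mean of its 2 probes on that scale, -1.54 for the brighter and -0.86 for the dimmer, while both stand at -1.84 as reported here. The scales differ in background correction and in the transform, an inverse hyperbolic sine there and log2 here. The brighter probe stands at -1.73 on the log2 scale with no background correction and at -1.71 on log2 of the authors' series matrix values. ACTA2 stands at -0.34 in the authors' deposited table and at -0.64 here, with -0.50 and -0.52 under the same alternatives. SRF stands at -0.43 in the authors' deposited table and at -0.45 here.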
